A study of Oryza sativa with 4 samples.

Results

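A set of 20 rice genes of 17905 measured, each through 1 probe set that met the rule, was far lower in young panicles harvested in 2014 than in those of 2013. They were chosen from the values themselves: the log2 intensities of the 4 arrays were quantile-normalized, which gives every array the same distribution, and a probe set tied to a single gene was taken where 2014 minus 2013 was at most −3 in WT and at most −3 in ago2-1. A difference of −3 on the log2 scale is an 8-fold lower intensity. Of 22436 single-gene probe sets (57194 probe sets in all) 23 met both limits, or 0.103%, and 3 of these, the probe sets of PCL1, HSFC1B and LOX1.1, were left out by the rule. GI and PRR1, which the rule also names as left out, missed the limit in WT. Because this difference chose the genes, its size is given below as a description with no test.

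The arrays are Affymetrix rice arrays hybridized with biotin-labelled cRNA from young panicles before stage 5 of plants in the field under normal conditions. The 2 genotypes are the wild type ZH11 (WT) and ago2-1, an antisense line against the argonaute gene OsAGO2. The sources used here give neither the promoter of the construct nor the number of independent lines. Each genotype has 1 array from 2013 and 1 from 2014, and the number of plants behind an array is not known here. AGO2 (LOC4336991), the targeted gene, did not lie below WT where the label says ago2-1, with quantile-normalized log2 levels of 9.84 on WT and 9.92 on ago2-1 in 2013 and 10.24 and 10.68 in 2014, so directions between genotypes below are those of the labels, and ago2-1 always means the arrays labelled so.

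As deposited, the median intensity of an array was 29.1 and 28.8 in 2013 and 45.3 and 45.2 in 2014, a shift that the quantile scaling removes. Of 14 measured floral and panicle genes fixed as markers of the tissue, among them the floral MADS-box factors, 14 lay above the array median (5.18 on the quantile-normalized log2 scale) on every array. The year of harvest coincides with the season and with the arrays hybridized for it, and these cannot be told apart. In bulk tissue fewer cells of a type and less RNA per cell cannot be told apart either.

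Gene activity in field-grown plants follows the hour, the weather and the stage of the organ. The circadian clock sets much of the daily course: LHY is a repressor that peaks around dawn, and PCL1, GI and PRR1 are evening genes, whose counterparts LHY represses in Arabidopsis. Abscisic acid, a hormone of water shortage and cold, acts through kinases of the SnRK2 family, to which the rice SAPK proteins belong. WRKY proteins are plant transcription factors known mainly from defence, and NIP proteins are aquaporin-like channels for water and small uncharged solutes.

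Gene names were read from the synonyms in the RefSeq annotation used here, and synonyms that begin with Os were passed over. By this filter 3 of the 20 members carry a gene name, and the other 17 are given by locus number only. SAPK9 (LOC4352660), an SnRK2 kinase of abscisic acid and osmotic stress signalling, had a level of 10.75 on the WT and 11.37 on the ago2-1 array of 2013, and of 6.79 and 7.31 on those of 2014. Both arrays of 2013 lay far above both of 2014, and ago2-1 lay above WT in each year. The year difference was −3.96 in WT and −4.06 in ago2-1. SAPK9 stayed among the upper part of each array in 2014 (percentile 66.1 in WT and 70.1 in ago2-1), so its lower values are not close to the dimmest probe sets.

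NIP4-1 (LOC4326119), a channel of the NIP aquaporin group, had 8.04 on WT and 6.03 on ago2-1 in 2013, and 2.16 and 2.41 in 2014. The WT array of 2013 stood alone at the top, and both arrays of 2014 were among the dimmest 5% of probe sets (percentiles 2.08 and 4.94). The year difference was −5.88 in WT and −3.62 in ago2-1, which is the widest gap between the genotypes of any member (2.26). Since 2014 levels this low may sit at background, the size of the difference in either genotype is not settled.

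WRKY76 (LOC4347069), a WRKY factor known in rice as a transcriptional repressor in the response to blast fungus and cold, had 6.86 and 6.64 in 2013 (WT, then ago2-1) and 3.33 and 3.51 in 2014. The genotypes were close together in each year, and the year difference was −3.54 in WT and −3.12 in ago2-1. The 2014 levels of WRKY76 were dim (percentiles 19.8 in WT and 23.1 in ago2-1), so the size of its difference is not settled. Its immediate neighbour on chromosome 9 is another WRKY gene, WRKY62 (LOC4347070), whose levels were 3.22 and 4.37 in 2013 and 3.54 and 3.94 in 2014. WRKY62 did not pass the test between years (mean difference −0.06, limma adjusted p = 0.85). All its levels lay below the array median (5.18), so it had little room to be lower in 2014. Whether it shares the pattern of WRKY76 cannot be read from these values.

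By the mean of both genotypes, the 4 largest year differences belonged to loci without a name. LOC4328039 on chromosome 2 had 10.12 on WT and 9.29 on ago2-1 in 2013 against 2.99 and 2.79 in 2014, differences of −7.13 and −6.50. On the quantile-normalized scale that is 139.9-fold in WT and 90.6-fold in ago2-1, although both levels of 2014 are dim and the folds depend on that floor. The gene went from percentiles of 91.8 and 85.9 to 14.1 and 10.6 of its array.

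LOC4343572 on chromosome 7 had deposited linear intensities of 837.0 and 441.7 in 2013 and 26.2 and 10.5 in 2014 (WT, then ago2-1), and quantile-normalized log2 differences of −5.63 and −6.13. LOC4349162 on chromosome 10 had quantile-normalized log2 levels of 10.16 and 8.85 in 2013 and 4.93 and 2.43 in 2014, differences of −5.22 and −6.42. In both of these loci ago2-1 was the lower array in each year and the lowest of the 4 in 2014. Those ago2-1 values of 2014 were dim (percentiles 13.6 for LOC4343572 and 5.25 for LOC4349162). The size of the year difference in ago2-1 is therefore not settled for either locus. LOC4334663 on chromosome 3 had 9.18 and 8.80 in 2013 and 3.71 and 3.51 in 2014, so its genotypes differed little and its year differences, −5.47 and −5.29, were nearly the same.

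The next 4 loci without a name by mean difference showed levels above 8 in 2013 and from 4.03 to 6.18 in 2014. LOC4332353 had 9.89 and 10.52 in 2013 and 5.38 and 5.14 in 2014, with differences of −4.52 in WT and −5.38 in ago2-1. LOC4348520 had 10.11 and 10.40 in 2013 and 5.43 and 5.30 in 2014, with differences of −4.68 and −5.11. In both loci ago2-1 was the higher array in 2013 and the lower one in 2014. LOC4331855 had 10.59 and 10.83 in 2013 and 6.08 and 6.18 in 2014, with differences of −4.51 and −4.65. LOC4343262 had 8.33 and 8.39 in 2013 and 4.05 and 4.03 in 2014, with differences of −4.29 and −4.36. In these last 2 loci the genotypes lay within 0.25 log2 of each other in both years.

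LOC4333734 and LOC4331746, both on chromosome 3, had unequal year differences in the genotypes, a contrast with no test of its own here. LOC4333734 had the highest WT level of any member, 11.37 on WT and 10.19 on ago2-1 in 2013, and 8.05 and 5.72 in 2014. Its WT array of 2014, at percentile 75.8, was the brightest 2014 value in the set. LOC4331746 had 9.48 and 8.79 in 2013 and 6.02 and 4.51 in 2014. The year difference was larger in ago2-1 than in WT in both loci, −4.47 against −3.32 for LOC4333734 and −4.28 against −3.46 for LOC4331746.

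At the edge of the rule, LOC4337388 was just inside it with −3.02 in WT and −3.72 in ago2-1 (levels of 7.08 and 7.79 in 2013, 4.06 and 4.07 in 2014). LOC4350698 had −3.27 and −3.09 (9.81 and 9.51, then 6.54 and 6.42) and LOC4333342 had −3.21 and −3.11 (8.64 and 8.44, then 5.43 and 5.33). Just outside it were LOC4340560 with −2.82 and −3.43, LOC4333719 with −2.75 and −3.81, and LOC4331259 with −2.71 and −2.72. No gap separates the members from these neighbours, so the limit is a cut through a continuous range. The 4 members not yet described (LOC4327696, LOC4324116, LOC4327616 and LOC4326000) had year differences from −4.22 to −3.17 in WT and from −3.75 to −3.28 in ago2-1. Among them LOC4326000 (percentiles 14.4 in WT and 10.2 in ago2-1) and LOC4327696 (17.4 and 20.3) were dim in 2014. The size of the difference is not settled for either.

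**Figure D1:**
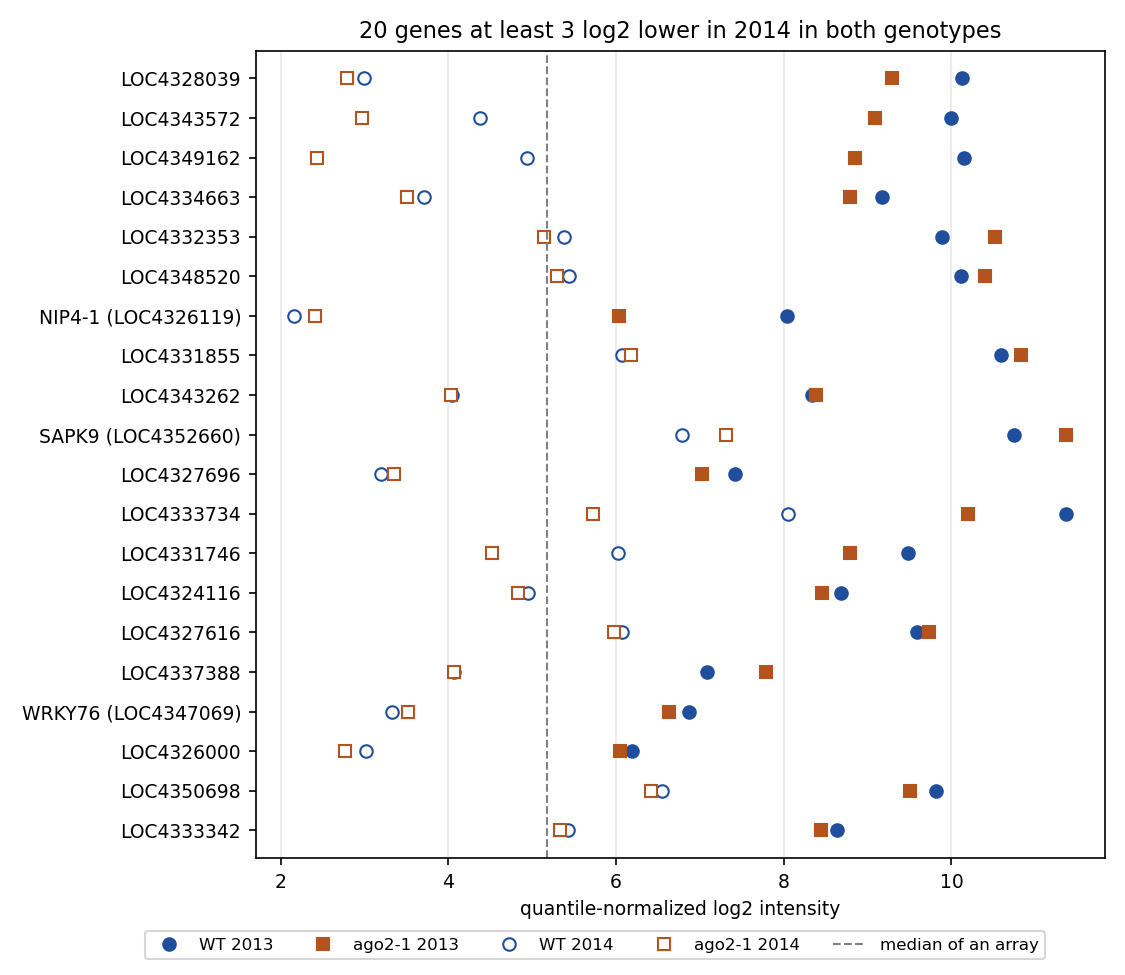
Quantile-normalized log2 intensity (x axis) of the 20 members (rows, ordered by the mean of both year differences) on the 4 arrays, with WT as circles, ago2-1 as squares, 2013 filled and 2014 open, and 1 point per array. For every member both arrays of 2013 lie to the right of both of 2014, of which the rule requires the part within a genotype, and the open points of 11 members lie left of the dashed array median (5.18) in both genotypes.

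The plot of levels on the 4 arrays shows how the members differ among themselves. In 2013 their WT levels ran from 6.19 to 11.37 with a median of 9.53, and those of ago2-1 from 6.03 to 11.37 with a median of 8.82. In 2014 the range was 2.16 to 8.05 (median 4.94) in WT and 2.41 to 7.31 (median 4.29) in ago2-1. On both arrays of 2013, 15 of the 20 were above the 75th percentile of all probe sets. On both arrays of 2014, 11 were below the array median and 5 below the 25th percentile. These percentiles are ranks within an array and do not depend on the scaling between years. Quantile-normalized levels follow the same ranks, so the percentiles restate the values that chose the members and are no separate support.

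The median year difference over the members was −4.09 in WT and −4.17 in ago2-1, against 0.02 and −0.02 over all single-gene probe sets. The genotypes agreed to within 0.5 log2 for 12 members, and for 3 (NIP4-1, LOC4349162 and LOC4333734) they were more than 1 log2 apart. The difference was larger in WT for 8 members and larger in ago2-1 for 12. Across the 20 genes, which are not independent replicates, the WT and ago2-1 differences had r = 0.76. The rule cut both differences at −3, so this r is a description only. Over all probe sets the year differences of the genotypes had r = 0.76 too. On the deposited scale, with the shift between years left in, the differences ran from −6.43 to −2.35 in WT and from −5.76 to −2.45 in ago2-1.

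The requirement of both genotypes did much of the choosing. The limit of −3 was met by 126 single-gene probe sets in WT and by 35 in ago2-1. It was met in WT only by 103 and in ago2-1 only by 12. In the other direction, 33 single-gene probe sets were at least 3 log2 higher in 2014 in both genotypes.

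**Figure D2:**
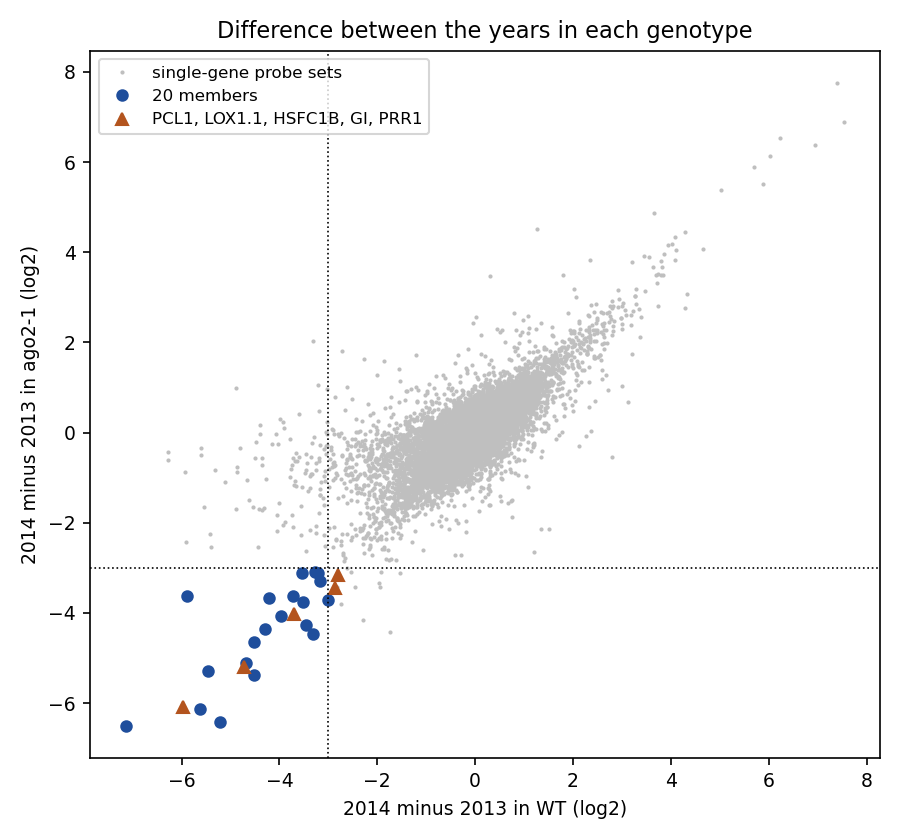
The 2014 minus 2013 difference in WT (x axis, log2) against that in ago2-1 (y axis, log2) for all single-gene probe sets (grey), the 20 members (blue) and the 5 genes that the rule leaves out (triangles), with dotted lines at −3. Members fill the lower left corner down to −7.13 and −6.50, and many grey points reach −3 in WT alone.

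The plot of year differences by genotype also places the genes that were left out. PCL1 lay at −5.96 in WT and −6.09 in ago2-1, LOX1.1, a lipoxygenase, at −4.73 and −5.19, and HSFC1B, a heat stress factor, at −3.69 and −4.02. GI lay at −2.85 and −3.45 and PRR1 at −2.80 and −3.15.

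Whether ago2-1 differs from WT within a year is a question that the rule did not use, and it was tested with limma on all probe sets with year and genotype as terms. The residual of this fit is the gap between the year differences of the genotypes, which the rule limits in part. None of the 20 members passed at an adjusted p of 0.05 (adjusted p from 0.17 to 0.98), while 67 of all 57194 probe sets did (0.117%). At an unadjusted p under 0.05 there were 6 members, 5 lower and 1 higher in ago2-1, and 8.91% of all probe sets.

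The 3 members with the smallest p were all lower in ago2-1 in both years. LOC4343572 differed by −0.91 in 2013 and −1.41 in 2014 (mean −1.16 ± 0.35, SD over years, n = 2, 95% interval −1.56 to −0.75, limma adjusted p = 0.17). LOC4349162 differed by −1.31 and −2.51 (mean −1.91 ± 0.85, interval −2.62 to −1.20, limma adjusted p = 0.19). LOC4333734 differed by −1.18 and −2.33 (mean −1.75 ± 0.82, interval −2.44 to −1.06, limma adjusted p = 0.21). These intervals leave out 0 but are not corrected for the number of probe sets tested. The 2014 differences of LOC4343572 and LOC4349162 rest on dim ago2-1 values (percentiles 13.6 and 5.25), so their size is uncertain.

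LOC4331746 followed with −0.69 and −1.51 (limma adjusted p = 0.29), and LOC4328039 with −0.83 and −0.21 (limma adjusted p = 0.52). Of these 6, SAPK9 was the member higher in ago2-1, by 0.62 and 0.52 (mean 0.57 ± 0.07, interval 0.26 to 0.88, limma adjusted p = 0.36). NIP4-1 differed by −2.01 in 2013 and by 0.25 in 2014, where both arrays were dim (limma adjusted p = 0.65). Differences of at least 1 log2 downward in both years, a limit set after the values were seen, were found in 2 members, LOC4349162 and LOC4333734, and in 0.169% of all single-gene probe sets.

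In all, 10 members were lower in ago2-1 in both years, 3 were higher and 7 were opposed. Over all single-gene probe sets these shares were 29.3%, 33.7% and 37.0%. Of 7 tapetum and pollen wall markers, 6 were lower in ago2-1 in both years and 1 higher, with summed linear intensities of 7375 in WT and 5365 in ago2-1 in 2013 and of 4587 and 3445 in 2014. Only 1 of the 7 passed the genotype threshold. Of 14 floral and panicle markers 1 was lower and 9 were higher in both years, and none passed. No green leaf or meiosis marker kept the same sign in both years. The part of these markers in the members' genotype differences was not tested. The members' median difference was −0.23 in 2013 and −0.12 in 2014, against 0.03 and 0.00 over all single-gene probe sets. The SD of the difference over all single-gene probe sets was 0.49 in 2013 and 0.30 in 2014.

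**Figure D3:**
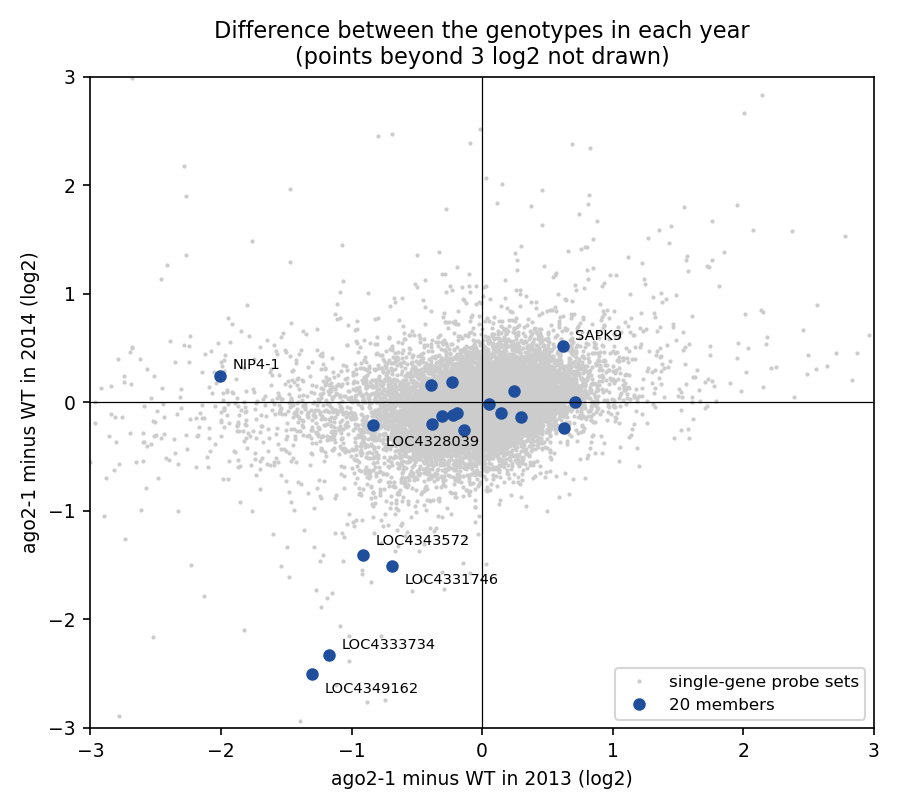
The ago2-1 minus WT difference in 2013 (x axis, log2) against that in 2014 (y axis, log2), with the 20 members in blue and all single-gene probe sets in grey, 1 array per genotype and year. LOC4349162, LOC4333734, LOC4343572 and LOC4331746 lie apart at the lower left with 2014 differences from −2.51 to −1.41, and NIP4-1 lies at −2.01 in 2013 and 0.25 in 2014.

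What the members share beyond their values was looked for in the annotation. All 20 are protein coding, and 6 have a curated RefSeq transcript. They lie on 9 of the 12 chromosomes, with 6 on chromosome 3 (which holds 13.7% of the measured genes) and 5 on chromosome 1 (14.8%). No members are adjacent: the closest pair, NIP4-1 and LOC4326000 on chromosome 1, is 80 protein-coding genes apart, and LOC4331746 and LOC4331855 on chromosome 3 are 105 apart.

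The genes next to the members mostly did not share the pattern. Of 40 immediate protein-coding neighbours 28 were measured, of which 3 were lower and 1 higher in 2014 past the threshold of the limma fit, and their median difference was −0.04. Over all probe sets 11.1% were lower and 12.2% higher. LOC9268662, beside LOC4326000, was lower with −2.85 in WT and −2.38 in ago2-1 (limma adjusted p = 0.0018), and LOC4324117, beside LOC4324116, with −1.56 and −1.10 (limma adjusted p = 0.0079). LOC4328038, beside LOC4328039, was lower by the test with a mean of −0.61.

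Only 1 member gene has a second single-gene probe set. For LOC4324116 that probe set, whose suffix marks possible cross-hybridization, lay at −3.09 in WT and −2.27 in ago2-1, against −3.73 and −3.62 for the probe set of the rule. For the other 19 genes the difference rests on 1 probe set. Those of SAPK9, LOC4337388 and LOC4350698 carry such a suffix too (_s_at or _x_at), and 17 members remain without them. Outside the single-gene probe sets, 9 with no single gene in the annotation met the same limits, with differences from −4.71 to −3.38 in WT and from −5.80 to −3.02 in ago2-1.

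The lists of clock, heat shock, jasmonate, drought and cold, flowering time and WRKY genes were compared between years in the same fit. Some of these lists hold the genes left out or the member WRKY76. All lists were chosen with results of these data known. A list's count is set beside the 11.1% lower and 12.2% higher over all probe sets. Of the 107 genes measured, 18 were lower and 22 higher, with 11 lower where the probe sets of a gene were averaged and 59 higher on the deposited scale. The lists hold 1 member, WRKY76, and 3 genes that met the limits but were left out. They were drawn up by gene name, so a member with no name in the annotation could not enter them. The overlap therefore does not show to which families the unnamed members belong.

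Of 7 measured clock genes 3 were lower (PCL1, GI and PRR1) and 2 higher. LHY had 6.60 and 6.66 in 2013 and 12.64 and 12.79 in 2014 (limma adjusted p = 0.000282), and PRR95 rose by 1.01 (limma adjusted p = 0.0082). The dawn gene LHY and the evening genes thus moved in opposite directions between the years. The sources used here give no hour of harvest, and the part of the clock in the members' differences was not tested.

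Of 6 measured WRKY genes the 1 lower was WRKY76 itself, which the rule chose. WRKY38 (LOC4328512) had 11.13 on the WT array of 2013 against 8.07, 6.73 and 8.04 on ago2-1 of 2013 and on WT and ago2-1 of 2014, so only its WT array of 2013 stood high (limma adjusted p = 0.14). Of 7 measured flowering time genes 1 was lower, HD1 (LOC4340746), a day-length regulator of flowering, with 5.78 and 6.89 in 2013 and 3.51 and 4.21 in 2014 (mean −2.47, limma adjusted p = 0.0018).

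Of 31 measured jasmonate genes 8 were lower and 1 higher, with a median of −0.34. LOX1.1 and the repressors TIFY11C (−4.43 in WT and −2.53 in ago2-1, limma adjusted p = 0.0086) and TIFY11D (−4.53 and −1.66, limma adjusted p = 0.025) were among the lower. TIFY11E had −5.60 in WT and −0.34 in ago2-1 (limma adjusted p = 0.11), so it met the limit of −3 in WT only.

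Of 13 drought and cold genes 1 was lower, DREB1B (−3.16 and −1.38, limma adjusted p = 0.019), and 3 were higher. SALT (LOC4326471), a salt-induced lectin gene, had −6.27 in WT and −0.60 in ago2-1 and did not pass (limma adjusted p = 0.095). Of 43 heat shock genes 4 were lower, with HSFC1B first among them, and 16 higher, with HSP24.1 (LOC4330786) at 4.09 and 4.33 (limma adjusted p = 0.000482). The other 3 lower genes were HSF07 (LOC4329526; mean −1.41, limma adjusted p = 0.031), and the small heat shock protein genes HSP17.9B (−0.72, 0.019) and HSP16.0 (−0.56, 0.031), so small heat shock protein genes were found in both directions.

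**Figure D4:**
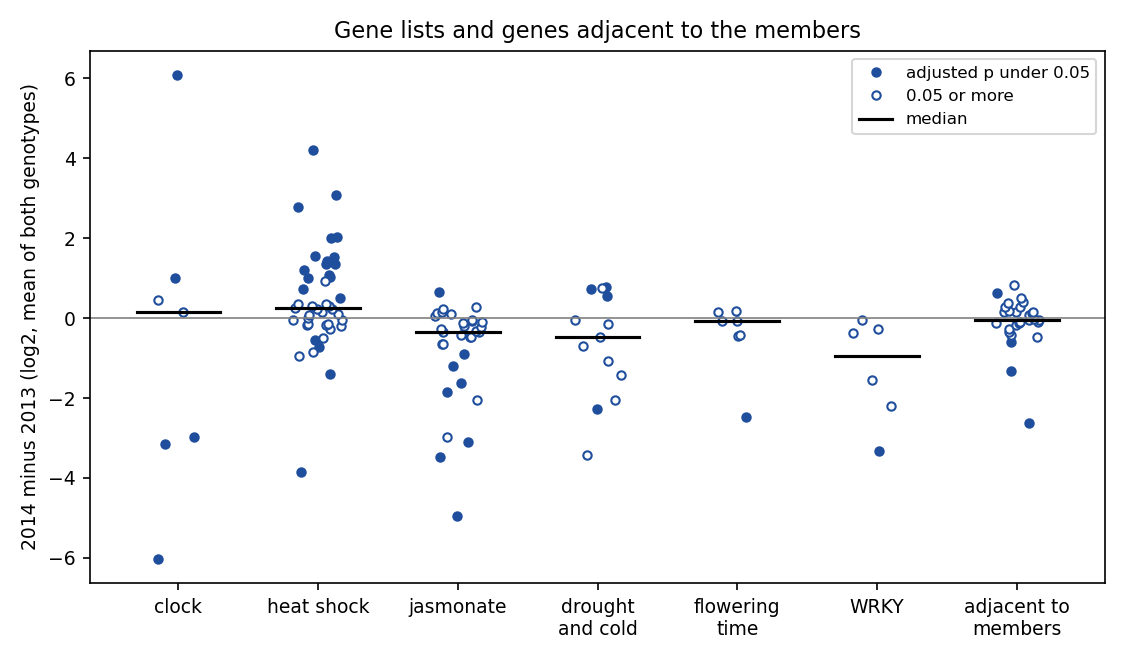
The 2014 minus 2013 difference (y axis, log2, mean of both genotypes) of each measured gene in 6 lists and of the 28 measured genes adjacent to members, filled where the limma adjusted p is under 0.05, with a bar at the median. Clock genes spread from −6.03 to 6.08, whereas the genes adjacent to members have a median of −0.04.

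Markers of anthers after the labelled stage (tapetum and pollen wall) and of green leaf moved with the year as well. In the tapetum and pollen wall list 5 of 7 measured genes were lower in 2014 and 0 higher, with summed linear quantile-normalized intensities of 7375 and 5365 in 2013 and 4587 and 3445 in 2014 (WT, then ago2-1). Of 5 green leaf genes 5 were higher and 0 lower, with sums of 6389 and 7394 in 2013 and 26833 and 24168 in 2014. No marker of either list is a member, but markers were matched by gene name too, which leaves out members without one. Of the 7 tapetum and pollen wall markers, 5 lay above the array median on all 4 arrays. The dimmest, C6, stayed below it on all 4 arrays, and PTC1 lay below it in 2014 (4.83 in WT and 4.60 in ago2-1). All 5 green leaf markers lay above the array median on all 4 arrays. Meiosis genes (4 measured) had 1 lower and 0 higher, with sums of 2698 and 2849 in 2013 and 2999 and 2884 in 2014, and of the 14 floral and panicle genes 1, MADS58, was lower. The part of these shifts in the members' differences was not tested.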

How the data were processed

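The authors deposited probe set intensities on a linear scale for 4 arrays. The submitters' processing notes name RMA without a version. Since the values are linear, log2 was taken here, with no pseudocount, and the arrays were quantile-normalized with limma 3.58.1 in R 4.3.3. The sorted deposited values of the years lay a median of 0.65 log2 apart and those within a year at most 0.12, so each year appears to have been normalized on its own. The platform annotation ties 22436 probe sets to 1 gene (17905 genes), 95 to several and none to 34663; all 22436 matched RefSeq (assembly ASM3414082v1), used for names and gene order only. No control probe sets were removed and no background measure was used, so dim levels have no measured floor. Precision is limited by the number of arrays, 1 per genotype and year.

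One limma fit (lmFit, eBayes, Benjamini-Hochberg over all 57194 probe sets, threshold 0.05) had year and genotype as terms, the year being the block that pairs the arrays: it stands in the titles, and same-year deviations from the genotype means correlated with r = 0.76. With 1 array per genotype and year, p-values rest on the gap between the year differences of the genotypes and on a variance shared over probe sets. They do not measure the spread between plants or repeat arrays of a condition. The fit leaves 1 residual degree of freedom against 4.48 prior. Its genotype term was tested on simulated data, where it found the changed probe sets but let through more false calls than the threshold allows. The genotype counts over all probe sets may therefore be too high. The year term, which the lists use, rests on the same residual but was not tested in this way. Year counts over all probe sets and lists may be too high as well, and list calls near the threshold are uncertain. Each listed gene is given by its brightest probe set. Named are members with a gene name, the 10 with the largest mean difference, the 3 nearest the limit on either side, the 5 with the widest gap between genotypes and the 3 with the smallest genotype p. The members and lists were chosen with earlier results of these data known. The meiosis name ZEP1 reached a zeaxanthin epoxidase and was left out. Promoter motifs were planned and are not analysed here. Alternatives were other scalings, limits, probe set filters, prior variances, no block and leaving out each array.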

Additional observations from a re-analysis of the deposited data

Results flagged for a closer look

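For 7 members the ago2-1 minus WT difference had opposite signs in the 2 years, each from 1 array per genotype and year, and the change of sign was not tested. The widest was NIP4-1 (LOC4326119), where the difference of 2014 exceeded that of 2013 by 2.26 (−2.01, then 0.25). LOC4332353 changed by −0.86 (0.63, then −0.23), LOC4327696 by 0.55 (−0.39, then 0.16), LOC4348520 by −0.43 (0.29, then −0.13) and WRKY76 (LOC4347069) by 0.41 (−0.23, then 0.19). LOC4327616 changed by −0.25 and LOC4343262 by −0.073, so for these the signs separate values close to 0. Opposed signs were found for 37.0% of all single-gene probe sets.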

How the results depend on the processing

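The number of members was 20, with 19 after median centring and 20 after cyclic loess, all of them shared, but 9 on the deposited scale (9 shared), where the median difference was −3.34 in place of −3.98. A limit of −2 gave 83 and one of −4 gave 8. Leaving out each array in turn, so that 1 genotype decides, gave 30 to 123 (123 without either ago2-1 array), and medians over the members from −4.17 to −4.09. No member passed the genotype test in any fit run. For the members the fit with no replicate block decides nothing, since the year difference that chose them then enters its residual. Among all probe sets that fit gave 1 call in place of 67. A trend in the prior variance gave 128 and the filter on dim probe sets 20. The genotype difference changed sign for WRKY76 after median centring (0.0023) and for LOC4327616 after cyclic loess (−0.014), both close to 0. Of the listed genes, 59 were higher on the deposited scale in place of 22, where 78.2% of all probe sets were higher and 2.31% lower, and 11 were lower in place of 18 with the probe sets of a gene averaged. The split over all probe sets was 10.4% lower and 16.3% higher after median centring. Tests without an array were not run, since the fit then has no residual degrees of freedom. Year differences of dim probe sets have no measured floor. Among these are NIP4-1, LOC4328039, WRKY76, LOC4327696, LOC4326000 and, in ago2-1, LOC4349162 and LOC4343572.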
